A study of Mus musculus with 12 samples.

Results

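Cadherin and protocadherin genes were examined in gastruloids, which are balls of cultured mouse embryonic stem cells that lengthen and form a head-to-tail axis. The 91 genes were those with a symbol of Cdh followed by a number, or starting with Pcdh, in the deposited annotation, out of 55141 genes in the count table. The endothelial cadherin gene Cdh5 was set aside. They comprised 22 Cdh genes and 69 protocadherin genes. By known family relations, the Cdh genes held 5 type I classical cadherins, 12 type II classical cadherins and 5 others. The protocadherins held 12 single genes and the 3 tandem clusters, with 13 alpha, 22 beta and 22 gamma genes.

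All gastruloids were made from 129/SVEV mouse embryonic stem cells, with 300 cells seeded per well, 48 h of aggregation and a 24 h pulse of 3 µM CHIR 99021, an activator of Wnt signalling. They were then embedded in a dextran-PEG hydrogel at 72 h or at 96 h after seeding, at 1.0 mM or at 1.5 mM, and freed from the gel with dextranase at 120 h. Poly-A RNA was sequenced from 3 replicates of each of the 4 groups, and each replicate pooled about 30 gastruloids of a single cell line. Gastruloids grown without a gel were not analysed here. The comparisons thus address when and in which gel the embedding took place, not the embedding itself. As all were collected at 120 h, gastruloids embedded earlier also spent longer in the gel. The time of embedding and the time spent in the gel cannot be told apart.

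Classical cadherins are transmembrane proteins that hold neighbouring cells together at adherens junctions, through calcium-dependent binding outside the cell and catenins inside it. Epithelial cells typically carry E-cadherin (Cdh1), while neural and mesenchymal cells carry N-cadherin (Cdh2) and several type II cadherins. Protocadherins bind more weakly. Single protocadherin genes of the delta groups are patterned in mesoderm and brain, and the clustered genes make many related isoforms through alternative first exons, best known for self-recognition of neurons.

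Total counts ran from 23011791 to 27609422 per library. Levels of single genes are given as CPM, counts scaled to a common library size after TMM normalization, or as FPKM, the authors' value per transcript length and library size, where genes are compared with each other. Of the 91 genes, 5 had no count in any library, and 31 had too few counts to be tested in any comparison, with at most 14 counts in a library. These 31 were 12 alpha cluster genes, 6 beta cluster genes, 2 delta-1 and 2 other single protocadherins, and 9 Cdh genes. Of the alpha cluster, only Pcdhac2 was tested. The 9 Cdh genes included cadherins known from brain, muscle, kidney or gut such as Cdh8, Cdh15, Cdh16 and Cdh17.

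By FPKM, Cdh11, a type II cadherin of mesenchyme, stood highest among the genes outside the alpha and gamma clusters, with a mean of 40.5 over the 12 libraries and a range from 30.1 to 51.6. Cdh2 came next with a mean of 20.9 (range 14.2 to 32.8), and then Cdh1 with 9.20 (range 6.87 to 11.6). The ranges of these 3 genes over libraries overlapped only between Cdh11 and Cdh2. Cdh24, another type II cadherin, followed with 7.45 and Pcdh18, a delta-2 protocadherin, with 4.17. Below these, Pcdhb22 (3.66), Pcdh7 (2.95), Pcdh1 (2.55), Cdh13 (2.43) and Cdh4 (1.75) lay in order, and each range over libraries overlapped that of the next. In all, 11 of the 56 genes outside the alpha and gamma clusters had a mean of at least 1 FPKM.

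**Figure D1:**
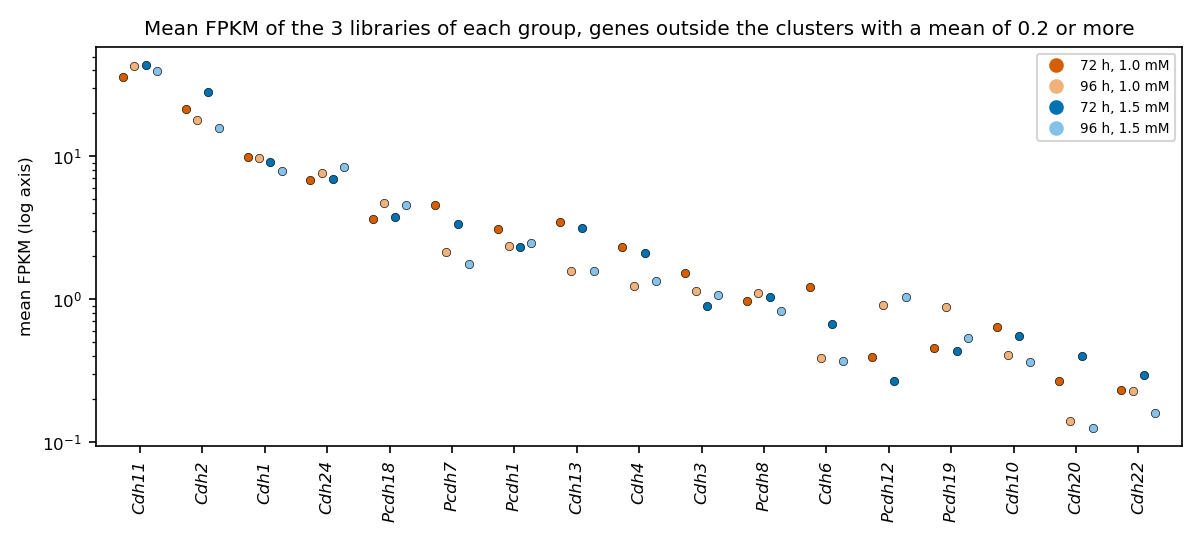
Mean FPKM of 17 cadherin and protocadherin genes outside the 3 clusters, on a log axis, with a point for the mean of the 3 libraries of each group. Cdh11 and Cdh2 head the order in every group. Cdh1 comes next in all but the 96 h, 1.5 mM group, where Cdh24 lies above it. Among the genes with points split by embedding time are Pcdh7, Cdh13, Cdh4, Cdh6, Cdh20 and Cdh10, higher at 72 h, and Pcdh12, Pcdh18, Pcdh19 and Cdh24, lower at 72 h.

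The FPKM values could not be used for the alpha and gamma clusters. The 13 alpha genes and 20 of the 22 gamma genes were listed at 0 in every library, although 9 and 20 of these had counts. The gamma gene Pcdhgc4 was listed at 81.0 FPKM on average, with 2.49 CPM in the counts. Genes of the alpha and of the gamma cluster share their last exons. Exonic bases that overlap another gene on the same strand, those exons included, made up 31.5% to 66.8% of a gamma gene and 48.6% to 91.4% of an alpha gene, and reads there cannot be given to a single gene. The levels of these genes are compared below as CPM per kilobase of exon that no other gene shares on the same strand. In the beta cluster, Pcdhb21 was listed at 0 FPKM in every 96 h library, although it had 35 to 53 counts there. It shares 9.7% of its exonic bases on the same strand, and its neighbour Pcdhb22 shares 6.9%. The FPKM of Pcdhb22 given above is therefore less certain.

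Embedding time was compared first. In 1.0 mM gels, 6 of the 56 tested genes passed an adjusted p of 0.05, with 5 higher after embedding at 72 h and 1 higher after embedding at 96 h. Over all 15763 tested genes, 9.24% passed. Among the 12 tested Cdh genes, 3 rose with the earlier embedding and none fell, and among the 44 tested protocadherins 2 rose and 1 fell. In 1.5 mM gels, 17 of 54 tested genes passed, 15 higher at 72 h and 2 lower, while 19.3% of all 15683 tested genes passed. There the Cdh genes gave 4 rises and 1 fall among 12, and the protocadherins 11 rises and 1 fall among 42. The median log2 fold change of 72 h over 96 h was 0.33 for the tested cadherin and protocadherin genes with 1.0 mM and 0.57 with 1.5 mM, against -0.0054 and -0.0052 for all tested genes. Split by direction, 5.97% of all tested genes were higher and 3.27% lower at 72 h in 1.0 mM gels, and 10.4% and 8.98% in 1.5 mM gels. With a log2 fold change above 1 in size also required, 4 and 7 of these genes remained, against 4.3% and 3.18% of all tested genes. At an unadjusted p under 0.05 there were 19 and 28, against 22.9% and 35.1%. The RNA is from whole gastruloids, so fewer cells of a type and less RNA per cell cannot be told apart.

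In both gels 4 genes changed, namely Cdh4, Cdh13, Pcdh7 and the alpha cluster gene Pcdhac2, each higher after embedding at 72 h. Another 2 were called in 1.0 mM gels only and 13 in 1.5 mM gels only. All 19 genes had the same sign in both gels, and none of the differences between the gels passed the test described further below.

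Cdh4 encodes R-cadherin, a type I classical cadherin of the retina, brain and kidney (chr2:179442431-179899373, mm10). Its levels in 1.0 mM gels were 20.5, 20.1 and 16.98 CPM after embedding at 72 h and 11.6, 9.91 and 9.08 CPM at 96 h. Those in 1.5 mM gels were 16.3, 20.0 and 16.5 CPM against 12.1, 12.9 and 9.15 CPM. The libraries of the earlier embedding lay above those of the later one in both gels, without overlap. The log2 fold change was 0.92 ± 0.14 (SE, adjusted p = 0.00203) in 1.0 mM gels and 0.62 ± 0.15 (adjusted p = 0.0191) in 1.5 mM gels. The second call was lost without replicate 2 at 72 h (adjusted p = 0.0698) or without replicate 3 at 96 h (adjusted p = 0.0600).

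Cdh13 encodes T-cadherin, which is tied to the membrane by a lipid anchor and lacks the catenin-binding tail (chr8:118283733-119324921). Its levels in 1.0 mM gels were 14.4, 13.4 and 15.3 CPM at 72 h, against 6.67, 6.14 and 7.94 CPM at 96 h. Those in 1.5 mM gels were 15.1, 12.6 and 12.1 CPM against 7.57, 7.34 and 5.72 CPM. Every library of the 72 h groups stood above every library of the 96 h groups, across both gels. The fold was 2.08 (log2 1.06 ± 0.14, adjusted p = 0.00121) in 1.0 mM gels and 1.92 (log2 0.94 ± 0.15, adjusted p = 0.00492) in 1.5 mM gels, and no alternative fit or left-out library ended either call.

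Cdh6, or K-cadherin, is a type II cadherin of kidney, hindbrain and neural crest (chr15:13028701-13173675). It had the largest change of the Cdh genes in 1.0 mM gels, with 18.8, 7.52 and 12.2 CPM at 72 h against 6.44, 2.93 and 2.87 CPM at 96 h. The 2 groups did not overlap, and the log2 fold change was 1.66 ± 0.36 (adjusted p = 0.0146). The call was lost without replicate 2 or replicate 3 at 96 h (adjusted p = 0.0701 and 0.0678). Cdh6 levels in 1.5 mM gels, of 11.8, 4.81 and 5.15 CPM against 6.11, 2.97 and 2.80 CPM, overlapped, and the log2 value of 0.86 ± 0.40 did not pass (adjusted p = 0.155), but passed with genes of few counts kept (adjusted p = 0.00857). Replicate 1 gave the highest level of Cdh6 in each of the 4 groups, as it did for Cdh3, Pcdh7 and Pcdh1. All 7 cardiac and anterior mesoderm markers were higher with the earlier embedding in 1.0 mM gels, with a summed level of 441 to 808 CPM at 72 h against 59.6 to 173 CPM at 96 h. The sum of 5 neural crest markers ran the other way, at 49.7 to 92.6 CPM against 129.9 to 167 CPM, with 1 of 3 tested markers higher and 2 lower. No marker on either list was at 0 in all libraries. The part of either in the levels of Cdh6 was not tested.

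N-cadherin, Cdh2 (chr18:16588877-16809246), rose with the earlier embedding in 1.5 mM gels, where it had 134, 172 and 183 CPM at 72 h against 113, 92.8 and 88.0 CPM at 96 h. The groups did not overlap, and the log2 fold change was 0.73 ± 0.12 (adjusted p = 0.00636). The levels of 147, 97.9 and 127 CPM against 100.2, 91.4 and 118 CPM in 1.0 mM gels overlapped (log2 0.27 ± 0.14, adjusted p = 0.281). There replicate 2 at 72 h was the lowest, and without it the log2 value was 0.41 (adjusted p = 0.0425). E-cadherin, Cdh1, had 38.9 to 65.2 CPM over the 12 libraries and log2 values of 0.04 ± 0.13 (adjusted p = 0.887) and 0.19 ± 0.14 (adjusted p = 0.365). The ratio of Cdh2 to Cdh1 in FPKM was, in 1.5 mM gels, 2.73, 2.83 and 3.75 for the 72 h libraries and 1.96, 1.96 and 2.09 for those of 96 h. The ratios for 1.0 mM gels were 2.28, 1.87 and 2.24 against 1.70, 2.02 and 1.86. The ratio was thus highest in the 3 libraries of the early, 1.5 mM group, and this is given as a description without a test.

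Cdh20, a type II cadherin of neural tissue (chr1:104768529-104995481), was a low gene that rose in 1.5 mM gels, from 0.487, 0.763 and 0.818 CPM at 96 h to 1.82, 1.96 and 2.27 CPM at 72 h. No library overlapped, and the fold of 2.91 (log2 1.54 ± 0.28, adjusted p = 0.00754) was the largest of the Cdh genes in that gel and held under every alternative. Its 72 h levels in 1.0 mM gels, of 1.06, 1.27 and 1.83 CPM, lay just above those of 1.03, 0.602 and 0.625 CPM at 96 h (log2 0.88 ± 0.34, adjusted p = 0.145). Cdh24 (chr14:54631231-54641364), a little studied type II cadherin, was the only Cdh gene that fell with the earlier embedding. It had 37.4, 37.7 and 39.0 CPM at 72 h against 44.7, 45.4 and 46.5 CPM at 96 h in 1.5 mM gels. The groups were tight and apart, and the change was small, with a log2 fold change of -0.26 ± 0.06 (adjusted p = 0.0201) that missed the threshold without replicate 2 or 3 of either group (adjusted p from 0.0600 to 0.0797).

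The most abundant cadherin, Cdh11, had 224 to 316 CPM at 72 h against 291 to 331 CPM at 96 h in 1.0 mM gels, and 284 to 362 CPM against 270 to 313 CPM in 1.5 mM gels. The groups overlapped in both, with log2 values of -0.23 ± 0.12 (adjusted p = 0.273) and 0.10 ± 0.09 (adjusted p = 0.465), although it passed in 1.0 mM gels without replicate 3 at 72 h (log2 -0.39, adjusted p = 0.0287). P-cadherin, Cdh3, an epithelial and placental cadherin, had 3.81 to 10.98 CPM and passed in neither gel (log2 0.44 ± 0.24 and -0.27 ± 0.30). Of the remaining tested Cdh genes, Cdh10 and Cdh23 were higher at 72 h in both gels without overlap, but had adjusted p between 0.0732 and 0.118. Cdh22 had a log2 value of 0.80 ± 0.27 (adjusted p = 0.0663) in 1.5 mM gels. Cdh10, Cdh23 and Cdh22 are named here after their values were seen.

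**Figure D2:**
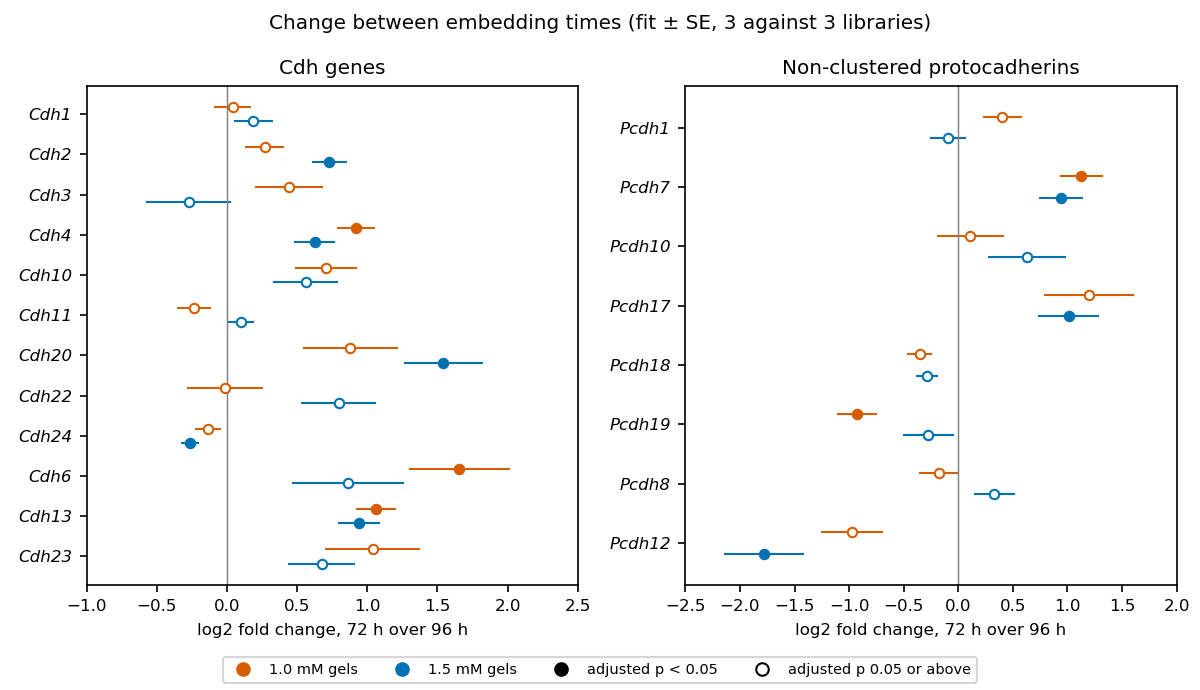
Log2 fold change of 72 h over 96 h (x axis) for the 12 tested Cdh genes and 8 tested single protocadherin genes (y axis), with the standard error of the fit as bars, orange for 1.0 mM and blue for 1.5 mM gels. Filled points passed an adjusted p of 0.05: most lie to the right of 0, and Cdh24, Pcdh19 and Pcdh12 lie to its left.

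Among the single protocadherins, Pcdh7 (chr5:57717967-58133230), a delta-1 gene expressed in heart and brain, changed most widely. Its levels in 1.0 mM gels were 43.1, 26.02 and 40.7 CPM at 72 h against 20.8, 16.4 and 13.4 CPM at 96 h. Those in 1.5 mM gels were 36.6, 23.9 and 26.1 CPM against 19.3, 12.0 and 13.6 CPM. The earlier embedding was higher in both gels, without overlap. The folds were 2.18 (log2 1.13 ± 0.20, adjusted p = 0.00506) and 1.92 (log2 0.94 ± 0.20, adjusted p = 0.0139). The second of these calls was lost without replicate 2 (adjusted p = 0.0549) or replicate 3 (adjusted p = 0.0606) at 96 h. An antisense gene overlaps 21.1% of its exonic bases. That gene had 0.482 to 2.04 CPM. The strand setting of the counts is not stated, and the part of the overlap in the level of Pcdh7 was not tested.

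Pcdh19 (chrX:133582860-133688987), a delta-2 gene linked to a form of epilepsy, moved the other way. It had 3.69, 3.76 and 5.08 CPM at 72 h against 7.17, 8.39 and 8.38 CPM at 96 h when embedded in 1.0 mM gels, with no overlap and a log2 fold change of -0.93 ± 0.18 (adjusted p = 0.00833) that held under every alternative. Pcdh19 levels in 1.5 mM gels were 3.07, 4.41 and 4.87 CPM against 4.72, 3.85 and 6.31 CPM, which overlapped (log2 -0.27 ± 0.23, adjusted p = 0.438). Of 6 somite markers, 6 were lower at 72 h in 1.0 mM gels and 5 in 1.5 mM gels, with sums of 110.3 to 211 CPM against 534 to 628 CPM in 1.0 mM gels and 130.4 to 252 CPM against 394 to 552 CPM in 1.5 mM gels, and their part in Pcdh19 was not tested.

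Pcdh12 (chromosome 18), known from endothelial cells and trophoblast, was also lower after the earlier embedding. Embedded in 1.5 mM gels, the libraries had 2.00, 0.757 and 1.05 CPM at 72 h against 5.14, 2.81 and 5.10 CPM at 96 h. The groups did not overlap, and the 3.44-fold difference (log2 -1.78 ± 0.36, adjusted p = 0.0114) held under every alternative. For 1.0 mM gels, the levels of 2.46, 1.02 and 2.04 CPM were also below those of 3.64, 3.45 and 3.79 CPM, but the log2 value of -0.98 ± 0.28 did not pass (adjusted p = 0.0568). It did pass with DESeq2 (adjusted p = 0.0292), with genes of few counts kept (adjusted p = 0.00189) and without replicate 1 at 72 h (adjusted p = 0.0240). The endothelial cadherin Cdh5 had log2 values of -0.53 ± 0.19 (adjusted p = 0.112) in 1.0 mM and -0.76 ± 0.30 (adjusted p = 0.108) in 1.5 mM gels. The summed level of 6 endothelial markers overlapped between the times, at 216 to 299 CPM against 222 to 249 CPM in 1.0 mM gels and 226 to 317 CPM against 269 to 301 CPM in 1.5 mM gels, most of it from Kdr. Of these 6, Cldn5 fell in both gels (log2 -1.92 and -2.37), Tie1 fell in 1.5 mM gels (log2 -0.98), and Kdr rose in 1.0 mM gels (log2 0.46). The part of the endothelial cells in the level of Pcdh12 was not tested.

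Pcdh17 (chr14:84443563-84539002), a delta-2 gene of axons and vessels, had 1.95, 1.74 and 1.95 CPM at 72 h against 1.24, 0.642 and 0.896 CPM at 96 h in 1.5 mM gels. Its log2 fold change of 1.01 ± 0.28 (adjusted p = 0.0365) was the least stable of the single protocadherins, and was lost without replicate 2 or 3 of either group (adjusted p from 0.0725 to 0.119) and in the fit of all 12 libraries (adjusted p = 0.0838). For 1.0 mM gels, it had 3.52, 1.14 and 1.75 CPM against 1.11, 0.602 and 1.07 CPM (log2 1.20 ± 0.41, adjusted p = 0.103), and passed with genes of few counts kept (adjusted p = 0.00165) and without replicate 2 at 72 h (adjusted p = 0.0309). Pcdh18, whose known roles include mesoderm, was the highest of the single protocadherins by mean FPKM. It was lower at 72 h in both gels without overlap, but its log2 values of -0.35 ± 0.12 (adjusted p = 0.0864) and -0.29 ± 0.10 (adjusted p = 0.0733) did not pass. The first passed in the fit of all 12 libraries (adjusted p = 0.0467), and the second without replicate 1 at 72 h (adjusted p = 0.00728). Pcdh1, Pcdh8, the paraxial protocadherin of presomitic mesoderm, and Pcdh10 passed in neither gel. Their log2 values ran from -0.18 to 0.40 in 1.0 mM gels and from -0.09 to 0.63 in 1.5 mM gels, and Pcdh1 passed in 1.0 mM gels without replicate 2 at 72 h (log2 0.59, adjusted p = 0.0262).

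**Figure D3:**
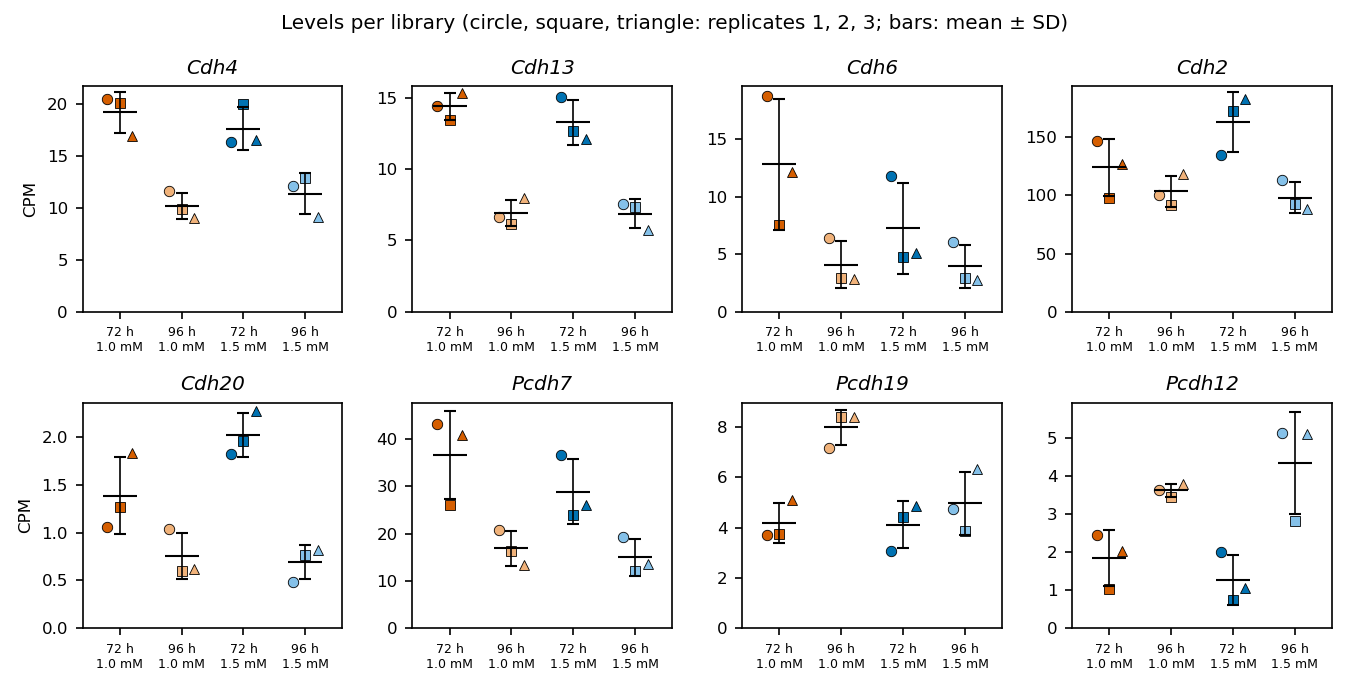
CPM of 8 genes in each library (y axis, from 0) for the 4 groups (x axis), with circles, squares and triangles for replicates 1, 2 and 3 and bars for the mean ± SD of 3 libraries. Cdh4, Cdh13 and Pcdh7 are higher at 72 h in both gels, the Cdh6 circles lead every group, and Pcdh19 and Pcdh12 are higher at 96 h.

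Sequences upstream of the start were available from RefSeq (GRCm38.p6) for 22 of the 91 genes and 6 of the 19 changed genes. Those of the 4 that rose are shown, because they are the genes with a known start that moved together. Each is read 5′ to 3′ on the strand of the gene and ends before the start of the Ensembl gene. The windows are chr5:57717831-57717966 (plus strand) for Pcdh7, chr15:13173676-13173925 (minus strand) for Cdh6, chr1:104768270-104768519 (plus strand) for Cdh20 and chr14:84443313-84443562 (plus strand) for Pcdh17. The Pcdh7 window holds 136 bases and the others 250. Capitals mark GGGCGG, the core of a GC box, and CCAAT, the core of a CCAAT box, on either strand.
Pcdh7: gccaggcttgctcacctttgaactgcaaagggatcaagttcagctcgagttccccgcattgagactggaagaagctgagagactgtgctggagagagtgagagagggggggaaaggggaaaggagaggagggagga
Cdh6: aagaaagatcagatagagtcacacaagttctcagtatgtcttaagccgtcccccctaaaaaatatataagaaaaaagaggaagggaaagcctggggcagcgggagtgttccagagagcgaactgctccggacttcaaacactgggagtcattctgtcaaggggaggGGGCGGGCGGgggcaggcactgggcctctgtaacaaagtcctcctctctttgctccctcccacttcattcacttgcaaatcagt
Cdh20: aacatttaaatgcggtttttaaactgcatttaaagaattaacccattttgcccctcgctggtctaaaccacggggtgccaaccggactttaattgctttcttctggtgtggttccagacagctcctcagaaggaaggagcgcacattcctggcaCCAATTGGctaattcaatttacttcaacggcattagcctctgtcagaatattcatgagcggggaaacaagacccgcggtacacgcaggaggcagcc
Pcdh17: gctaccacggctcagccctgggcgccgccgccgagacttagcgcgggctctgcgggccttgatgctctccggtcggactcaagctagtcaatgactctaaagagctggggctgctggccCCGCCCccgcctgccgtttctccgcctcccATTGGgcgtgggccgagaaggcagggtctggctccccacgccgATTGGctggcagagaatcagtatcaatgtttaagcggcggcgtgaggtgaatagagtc
GGGCGG (or CCGCCC) occurred in 32.7% and CCAAT (or ATTGG) in 33.8% of 32851 upstream windows of 250 bases. Cdh6 held 2 overlapping GC box cores, Pcdh17 held 1 with 2 CCAAT cores, Cdh20 held 2 overlapping CCAAT cores on opposite strands, and Pcdh7 held neither. The windows of the 2 changed genes that fell and have one, Cdh24 and Pcdh19, held 2 and 1 GC box cores. The E-box CAGGTG (or CACCTG), found in 17.2% of all windows, and AGATAA (or TTATCT), a form of the GATA motif found in 9.99%, were in none of the 6. The 4 windows thus shared none of these letters, which are matches only and not sites.

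The clusters on chromosome 18 held 8 of the 13 genes called in 1.5 mM gels only, all in the gamma cluster. Of its 22 genes, 8 rose with the earlier embedding there (36.4%) and none fell, while in 1.0 mM gels none of 21 tested passed. The share of all tested genes that rose with the earlier embedding was 10.4% for 1.5 mM and 5.97% for 1.0 mM. Calls were thus scarcer with 1.0 mM for all genes, not only for this cluster. Without replicate 2 at 72 h, Pcdhgc3, Pcdhga11 and Pcdhgb7 passed in 1.0 mM gels too (adjusted p from 0.00408 to 0.0197), as they did with genes of few counts kept (adjusted p from 8.98e-05 to 0.0191). The values leaned to 72 h in both, with a median log2 fold change of 0.73 over 22 genes in 1.5 mM gels, 20 of them positive, and of 0.42 over 21 in 1.0 mM gels, all positive. The genes share exons and a locus, so they are not independent of each other.

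Pcdhgc3 (chr18:37806410-37841873), 1 of 3 C-type isoforms of the cluster, carried the largest share of its reads. It had 51.3, 57.4 and 70.6 CPM at 72 h against 31.6, 24.96 and 26.4 CPM at 96 h in 1.5 mM gels. The groups did not overlap, and the fold of 2.15 (log2 1.11 ± 0.13, adjusted p = 0.00201) had the smallest adjusted p of all cadherin and protocadherin genes in this comparison and held under every alternative. Pcdhgc3 levels in 1.0 mM gels were 64.1, 28.6 and 55.1 CPM against 36.1, 28.6 and 38.6 CPM, and replicate 2 at 72 h lay among the later libraries (log2 0.52 ± 0.23, adjusted p = 0.211). Without that replicate the log2 value was 0.80 (adjusted p = 0.00408). An antisense gene with 1.96 to 3.37 CPM overlaps 28.4% of its exonic bases.

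Per kilobase of unshared exon, Pcdhgc3 averaged 12.7 CPM, followed at a distance by Pcdhga4 (2.13), Pcdhga2 (1.81), Pcdhga7 (1.59) and Pcdhga11 (1.56), while Pcdhga8 was lowest at 0.217. Of the A and B types, Pcdhga11 had 5.24, 5.61 and 5.23 CPM at 72 h against 2.699, 2.33 and 3.00 CPM at 96 h in 1.5 mM gels. Its libraries were apart, with a log2 fold change of 1.00 ± 0.17 (adjusted p = 0.00602), and its call held under every alternative. The other 6 that rose there were Pcdhga10 (log2 1.09), Pcdhgb7 (1.03), Pcdhgb4 (0.98), Pcdhgb6 (0.95), Pcdhgc4 (0.87) and Pcdhga2 (0.76), with adjusted p from 0.0138 to 0.0444. Each of these 6 lost its call without replicate 3 at 72 h and likewise without replicate 3 at 96 h, with adjusted p from 0.0561 to 0.159. Each also lost it without replicate 2 of at least 1 group (adjusted p from 0.0524 to 0.143), and Pcdhgb4 without replicate 1 at 96 h (adjusted p = 0.0546) and in the fit of all 12 libraries (adjusted p = 0.0718). The 2 negative values of that gel, named after they were seen, were those of Pcdhga12 (-0.06 ± 0.27) and Pcdhga1 (-0.20 ± 0.28). An antisense gene with 0.401 to 1.24 CPM overlaps 55.2% of the exonic bases of Pcdhga10, 29.0% of Pcdhga11 and 16.4% of Pcdhgb7. Pcdhga10 also shares 44.8% of its exonic bases on the same strand, yet it had counts in all 12 libraries (mean 59.75). Whether the counts were kept apart by strand was not tested.

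Summed over the 22 genes, the gamma cluster had 111, 115 and 136 CPM at 72 h against 77.6, 62.9 and 59.6 CPM at 96 h in 1.5 mM gels. The sums for 1.0 mM gels were 134, 69.8 and 118 CPM against 82.9, 62.9 and 88.3 CPM. The libraries of the 2 times were apart in 1.5 mM gels, and in 1.0 mM gels replicate 2 at 72 h fell within the range of the later group. Pcdhgc3 made up 46.3% to 52.1% of the sum at 72 h and 39.7% to 44.3% at 96 h in 1.5 mM gels, and 41.0% to 47.8% against 43.6% to 45.4% in 1.0 mM gels. Reads of the shared last exons cannot be given to a single gene, so the sums do not measure the whole cluster. The FPKM values, set aside above, did not all move with the sums. In FPKM, Pcdhgc3 had 27.8, 31.0 and 37.5 at 72 h against 21.1, 15.1 and 16.8 at 96 h in 1.5 mM gels. Pcdhgc4 ran the other way, with 70.9, 71.8 and 68.3 against 94.2, 81.7 and 84.7.

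**Figure D4:**
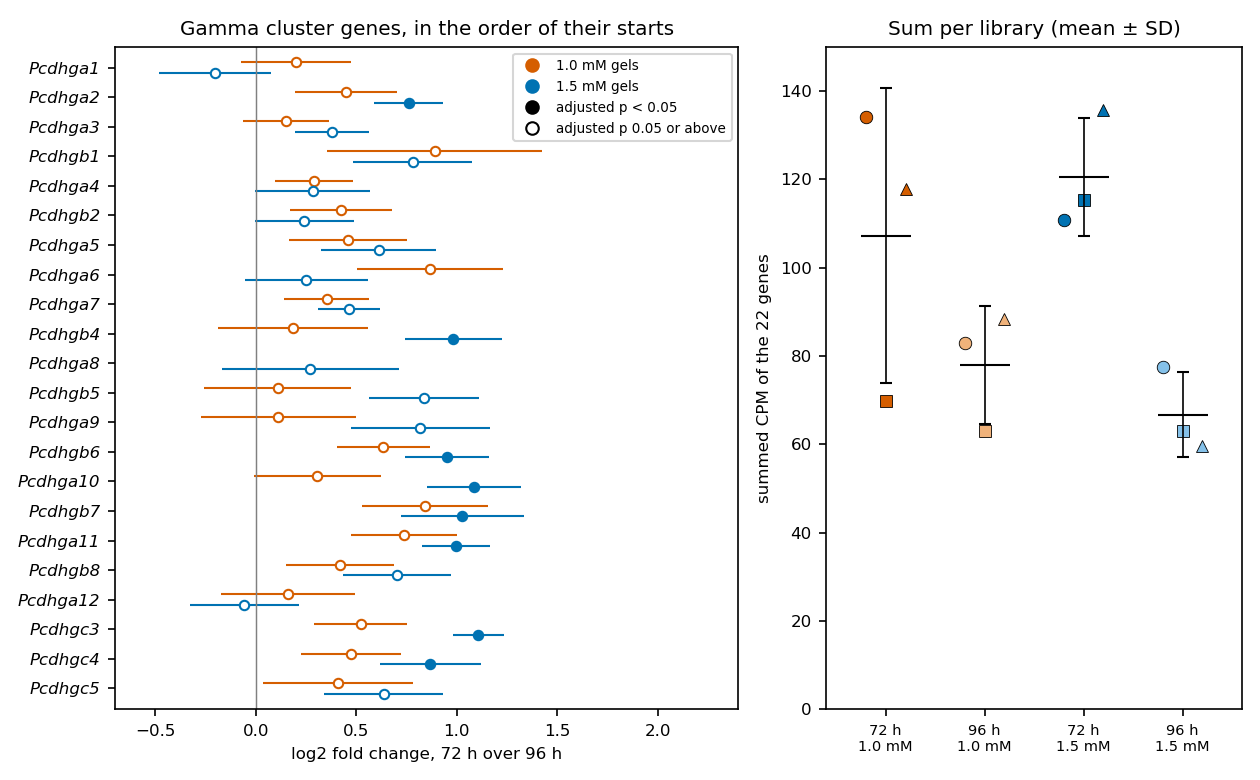
Left, log2 fold change of 72 h over 96 h (x axis, bars for the standard error) for the gamma cluster genes in the order of their starts (y axis), with 1.0 mM gels in orange, 1.5 mM gels in blue and filled points for an adjusted p below 0.05. Right, summed CPM of the 22 genes per library (y axis, from 0) with the mean ± SD of 3 libraries: the 1.5 mM groups are apart, and the square of 72 h in 1.0 mM gels lies among the libraries of 96 h.

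The beta cluster gave no call. Of its 22 single-exon genes, 14 were tested in 1.0 mM and 11 in 1.5 mM gels, with median log2 values of 0.15 and 0.13. Pcdhb22 was by far the highest, with 15.5 to 21.3 CPM, while no other beta gene passed 3.45 CPM in any library. Its groups overlapped in both gels, with log2 values of 0.03 ± 0.12 and 0.06 ± 0.11 that correspond to intervals of 2 standard errors from -0.21 to 0.26 and from -0.15 to 0.27. The next, Pcdhb20 and Pcdhb19, had log2 values between -0.21 and 0.23. The summed beta level was 31.6 to 45.3 CPM at 72 h against 35.3 to 37.4 CPM at 96 h in 1.0 mM gels, and 33.7 to 38.1 CPM against 31.8 to 36.2 CPM in 1.5 mM gels, with an overlap in both.

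In the alpha cluster, reads were few and fell mostly on Pcdhac2, a C-type isoform. It had 86, 11 and 21 counts at 72 h and 7, 2 and 0 counts at 96 h in 1.0 mM gels. Its counts in 1.5 mM gels were 39, 21 and 12 against 8, 5 and 5. The 72 h libraries lay above the 96 h libraries in both gels, and the log2 values were 3.79 ± 0.93 (adjusted p = 0.0264) and 2.14 ± 0.53 (adjusted p = 0.0225). The first rests largely on replicate 1 at 72 h. Without that library the log2 value was 2.48 (adjusted p = 0.0680), and the call was also lost without replicate 2 or 3 at 96 h (adjusted p = 0.104 and 0.1001) and with DESeq2 (adjusted p = 0.0725). The call in 1.5 mM gels was lost without replicate 2 or 3 at 96 h (adjusted p = 0.0821 and 0.0840) and in the fit of all 12 libraries (adjusted p = 0.0862). The next alpha genes, Pcdha3 and Pcdha11, averaged 1.67 and 1.33 counts.

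The counts of protocadherins called in 1.5 mM gels moved strongly with single libraries. From 12, they came to 7 without replicate 2 at 72 h, 5 without replicate 3 at 72 h, 4 without replicate 2 at 96 h and 3 without replicate 3 at 96 h. Calls over all genes fell from 3033 to 1614, 1342, 1181 and 1224 in the same fits. Leaving out replicate 1 at 72 h or at 96 h gave 13 protocadherins in each case, with 4102 and 2542 calls over all genes. For 1.0 mM gels, leaving out replicate 2 at 72 h, the library with the low gamma sum, raised the protocadherin calls from 3 to 8, while calls over all genes went from 1457 to 1680. The Cdh calls in 1.5 mM gels went from 5 to 3 without replicate 2 at 72 h or replicate 3 at 96 h.

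Gel concentration was compared next, within each embedding time. No cadherin or protocadherin gene passed between 1.5 mM and 1.0 mM gels, among 56 tested at 72 h and 54 tested at 96 h, and neither did any of the 15563 and 15861 genes tested (0%). DESeq2 also called none of these genes, though 14 and 86 of all genes. At an unadjusted p under 0.05 with edgeR there were 2 at 72 h and 5 at 96 h, against 6.9% and 9.95% of all genes. At 72 h the smallest p values were those of Cdh3 (log2 -0.76 ± 0.29), Cdh2 (0.39 ± 0.15) and Cdh6 (-0.82 ± 0.38), with adjusted p between 0.698 and 0.704. Cdh3 had 10.98, 6.05 and 9.41 CPM in 1.0 mM gels and 7.55, 4.27 and 3.81 CPM in 1.5 mM gels, with an overlap. The intervals of 2 standard errors reached from -1.34 to -0.18 for Cdh3 and from 0.09 to 0.70 for Cdh2, so changes of these sizes could not be told from none after adjustment. All 3 passed when genes with few counts were kept in the test (adjusted p = 0.0136, 0.00855 and 0.000639), a setting that called 322 genes in all.

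At 96 h the smallest p was that of Pcdh19, with 7.17, 8.39 and 8.38 CPM in 1.0 mM gels against 4.72, 3.85 and 6.31 CPM in 1.5 mM gels. These groups did not overlap, but the log2 value of -0.68 ± 0.18 did not pass (adjusted p = 0.255). It passed when genes with few counts were kept (adjusted p = 0.00591). Pcdhgc3 (-0.32 ± 0.12, adjusted p = 0.437) and Pcdhb4 (-1.07 ± 0.43, adjusted p = 0.451), a beta gene with under 1 CPM, came next. Of the 54 tested genes, 40 had a negative value, with a median of -0.10, against -0.0047 for all tested genes. Of these 40, 18 were gamma cluster genes, which are not independent of each other.

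Whether the effect of embedding time differed between the gels was tested as an interaction in a fit of all 12 libraries. None of the 60 tested cadherin and protocadherin genes passed with edgeR or DESeq2, and of all 16388 genes none passed with edgeR (0%) and 2 with DESeq2. At an unadjusted p under 0.05 there were 3, against 4.32% of all genes. They were Cdh22 (log2 0.82 ± 0.35), Cdh2 (0.47 ± 0.21) and Pcdh19 (0.67 ± 0.30), each with an adjusted p of 0.953. For Pcdhgc3 the value was 0.60 ± 0.31, with an interval of 2 standard errors from -0.03 to 1.22. A gene called in a single gel is therefore not shown to respond differently in the 2 gels.

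Other genes of cell junctions were taken from 3 lists. Of 13 catenins and adherens junction adaptors, which link cadherins to actin, 12 were tested. Jup (plakoglobin, log2 0.74) and Nectin2 (0.33) rose and Ctnna2 (alpha-N-catenin, -1.15) and Nectin1 (-0.29) fell at 72 h in 1.0 mM gels, and Ctnnd1 (p120 catenin, 0.29) and Nectin2 (0.24) rose and Ctnna2 (-0.63) fell in 1.5 mM gels. The calls of Nectin2 and Nectin1 and, in 1.5 mM gels, those of Ctnnd1 and Ctnna2 were lost when single libraries were left out, in each case including replicates 2 and 3 at 96 h (adjusted p up to 0.169). Beta-catenin (Ctnnb1) did not pass. It averaged 1173 CPM against 1203 CPM at 96 h in 1.0 mM gels (log2 -0.03 ± 0.11, adjusted p = 0.902), and 1255 CPM against 1126 CPM in 1.5 mM gels (log2 0.15 ± 0.06, adjusted p = 0.111).

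Of 8 desmosomal cadherins and plaque proteins, which join cells to intermediate filaments, 6 were tested. Dsg2 (desmoglein, log2 0.93), Dsc2 (desmocollin, 0.69), Dsp (desmoplakin, 0.52) and Pkp2 (plakophilin, 1.19) rose at 72 h in 1.0 mM gels, and Dsg2 (0.61), Dsc2 (0.67) and Dsp (0.70) rose in 1.5 mM gels. None fell. Pkp2 kept its call in 1.0 mM gels under every alternative, and each of the other calls was lost without replicate 2 or 3 at 96 h (adjusted p up to 0.113 over all libraries left out). The cardiac marker sum, which also rose at 72 h, ran from 352 to 657 CPM against 172 to 307 CPM in 1.5 mM gels. The sum of 8 endoderm and epithelial markers was 636 to 736 CPM at 72 h against 526 to 581 CPM at 96 h in 1.0 mM gels. There 3 of the 8 were called higher and 1 lower. In 1.5 mM gels the sums overlapped, at 457 to 602 CPM against 423 to 555 CPM, with 3 higher and 2 lower. These desmosomal proteins are also part of cardiac muscle junctions. The part of cardiac or epithelial tissue in their levels was not tested.

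Of 17 atypical cadherins, 14 were tested. Fat3, a giant protocadherin-like protein of neurons, was lower at 72 h, with means of 11.4 CPM against 30.2 CPM in 1.0 mM gels (log2 -1.41, adjusted p = 0.000604) and 11.8 CPM against 30.1 CPM in 1.5 mM gels (log2 -1.35, adjusted p = 0.00259). Clstn2 (calsyntenin, 1.11 and 0.93) and Celsr2 (a planar polarity cadherin, 0.47 and 0.44) rose in both gels. In 1.5 mM gels Fat1 (0.41) rose and Cdhr4 (-0.75) fell, and Celsr1 (log2 0.40), which lies outside the naming rule, also rose. The calls of Fat3, Clstn2 and Fat1 held under every alternative, while those of Celsr2 and Cdhr4 were lost without replicate 2 or 3 at 96 h (adjusted p up to 0.139 over all libraries left out).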

How the data were processed

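RNA of 12 libraries, 3 for each of 4 groups, was analysed. The authors trimmed reads with cutadapt 4.4, aligned them to mm10 with STAR 2.7.10b against a custom Ensembl annotation, and deposited raw read counts per gene, for which the strand setting is not given in the sources used here. They also deposited FPKM values computed with Cufflinks 2.2.1.3. A table of the authors' own DESeq2 comparisons (fold changes and p-values) was not used.

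The counts were tested with edgeR 4.0.16 (quasi-likelihood test, TMM scaling, R 4.3.3) on the genes kept by filterByExpr (at least 10 counts, total at least 15), leaving out 36 mitochondrial genes. Each comparison was fitted on the 6 libraries it concerns, and the interaction on all 12. A gene was called changed at a Benjamini-Hochberg adjusted p below 0.05 over all genes tested, and errors are standard errors of the fit. FPKM served for levels only. The procedure was tested on simulated data. Alternatives were DESeq2 1.42.0, RLE scaling, no filter on low counts, all 12 libraries in 1 fit, a replicate block, a log2 fold change above 1 (for counts of genes, not for single genes), and leaving out each library.

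Total counts of 23011791 to 27609422 bound the precision for low genes. The 12 replicate pairs differed beyond sampling noise (chi-square per degree of freedom of at least 10.1), so each library counted once. What separates the replicates is not given in the labels, so p-values measure the spread between these pools of gastruloids. The members, the lists and the marker genes were chosen with earlier results of these data known. Named were members called between embedding times, 13 fixed cadherin and protocadherin genes, the 3 smallest unadjusted p in each gel comparison and the interaction, the 5 highest by FPKM, the 3 highest by count in each cluster, and up to 5 called genes of each junction list.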

Additional observations from a re-analysis of the deposited data

How the results depend on the processing

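Under the alternatives, 73 counts of changed genes stayed within 1.5 times the reported count and 16 moved. With all 12 libraries in 1 fit, 5 Cdh genes changed in 1.0 mM gels in place of 3. Without the filter on low counts, 8 protocadherins changed in 1.0 mM gels in place of 3, and 3 genes differed between gels at 72 h, 1 at 96 h and 2 in the interaction, in place of 0. With a log2 fold change above 1 also required, 1 Cdh gene in place of 5 and 6 protocadherins in place of 12 remained in 1.5 mM gels. Leaving out each library gave 2 to 4 Cdh genes and 2 to 8 protocadherins in 1.0 mM gels, and 3 to 5 and 3 to 13 in 1.5 mM gels. The cause of these shifts was not tested.

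The main fits did not pair libraries by replicate number. The deviations of same-numbered libraries correlated positively, at 0.04 to 0.30, and at over 0.1 in 8 of 12 pairs. A shared effect of the replicate number is thus not excluded. With the replicate block, 8 protocadherins changed in 1.0 mM gels and 14 in 1.5 mM gels, 3 and 6 Cdh genes, and 1 gene (Pcdh19, adjusted p = 0.0262) between gels at 96 h. Called with the block were also Pcdh12 (adjusted p = 0.0230), Pcdh17 (0.0265), Pcdh18 (0.0313), Pcdhgc3 (0.0372) and Pcdhga11 (0.0444) in 1.0 mM gels, and Cdh6 (0.00555) and Pcdh18 (0.0296) in 1.5 mM gels. Over all genes the calls went from 1457 to 2122 and from 3033 to 3885.

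No changed gene reversed in the gel in which it was called. Among 1082 values of named genes under alternatives, 926 kept their direction and side of the threshold, 96 lost it, 45 gained it and 15 reversed, all 15 with a library left out. Leaving out each library gave log2 values of -0.0301 to 0.543 for Pcdhga10, -0.101 to 0.597 for Pcdhgb4, -0.0863 to 0.136 for Cdh1, -0.0912 to 0.339 for Pcdh10, -0.0604 to 0.121 for Pcdhb22 and -0.0624 to 0.535 for Pcdhb19 in 1.0 mM gels. In 1.5 mM gels they were -0.641 to 0.0447 for Cdh3, -0.291 to 0.00468 for Pcdh1, -0.0113 to 0.119 for Pcdhb22, -0.0849 to 0.0240 for Pcdhb19 and -0.116 to 0.0602 for Nectin1. Low counts limited the tests: 31 of the 91 genes had too few for any comparison.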
